A study of Homo sapiens with 18 samples.

Results

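The transcriptome of HCT116 cells that expressed the antisense sequence of the long noncoding RNA CRLM1 was compared with that of HCT116 cells that carried the empty vector. The comparison took 6 of the 18 libraries of the series, the 3 of group Antisense_NC and the 3 of group Ctrl_NC, and every gene that passed a filter on low counts, 14389 of 31004 genes listed. HCT116 is an established human colorectal carcinoma cell line. Both groups also carried the negative control (NC) of the hnRNPK expression construct, so neither overexpressed hnRNPK. The study's methods give a lentiviral vector with puromycin selection for CRLM1 and plasmid transfection for hnRNPK. Its results describe transfection with CRLM1, its antisense or a free plasmid for an RNA-seq experiment, and stable CRLM1 overexpression for the hnRNPK experiment. Which route gave the antisense and empty vector cells of these libraries is not stated in the sources used here. Nor do they state whether the cells of either kind were made more than once or came from single clones, so the antisense sequence and the line that carries it cannot be told apart. The labels number the 3 libraries of each group as replicates, and the study describes 3 biological replicates of such cells. The p-values measure the spread between the libraries of a group.

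The study used both kinds of cell as controls for cells that expressed CRLM1, and the comparison asks how far these controls differed from each other. Many of the genes described below belong to the integrated stress response. In that pathway, kinases that sense amino acid shortage, unfolded protein, viral RNA or heme shortage phosphorylate the translation factor eIF2alpha. Translation then falls in general while that of the transcription factor ATF4 rises, and ATF4 activates genes of amino acid synthesis, uptake and tRNA charging, together with feedback regulators. The heat shock proteins and the sterol synthesis enzymes answer to other factors, HSF1 and SREBP2.

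Total counts ran from 19732681 to 27039520 per library, and between 19560 and 20655 genes had a count. Levels are given as CPM, the counts divided by the scaled library size in units of 1e6 reads. Differences are log2 fold changes of Antisense_NC over Ctrl_NC with their standard error (SE) and an adjusted p from the quasi-likelihood test of edgeR. Rises given in log2 units are log2 fold changes as well. A gene rose or fell where that p was at most 0.05, and it was called where the fold change was also at least 2 or at most 0.5. The correlation of log2 CPM was 0.9902 to 0.991 between Ctrl_NC libraries, 0.992 between Antisense_NC libraries and 0.956 to 0.9596 across the groups. Of the genes tested, 4944 rose (34.4%) and 4631 fell (32.2%). 1035 were called higher (7.19%) and 998 called lower (6.94%). Counts of list members given below are to be read beside these shares over all genes. The 2 groups of libraries did not overlap for 9910 genes (68.9%). The median log2 fold change over all genes tested was -0.0025. With the authors' FPKM on the log2(FPKM + 0.1) scale, which does not rescale libraries for composition, the median was 0.21 and the calls split into 1488 higher and 413 lower.

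**Figure D1:**
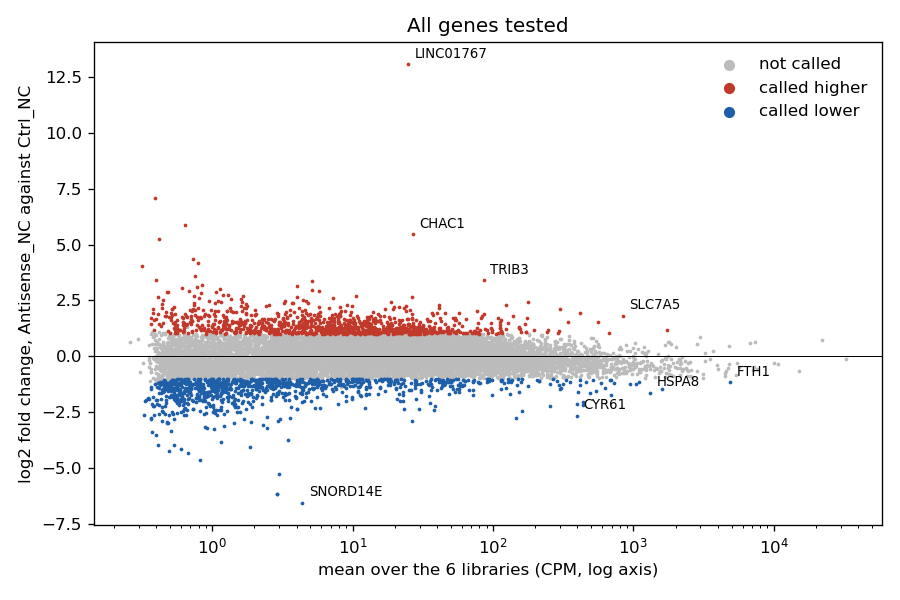
Each point is 1 of the 14389 genes tested, with its mean level over the 6 libraries on the horizontal log axis (CPM) and its log2 fold change of Antisense_NC over Ctrl_NC on the vertical axis. Red and blue points are the 1035 and 998 genes called higher and lower, and LINC01767 stands at the top because it had no count in any Ctrl_NC library.

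Calls were not spread evenly over kinds of gene. Among protein-coding genes 957 were called higher and 562 lower of 12270 tested. Among lincRNA genes the numbers were 14 and 86 of 396, among sense intronic transcripts 4 and 42 of 87, and among snoRNA genes 0 and 43 of 61. In the fifth of genes with the lowest GC content 326 were called higher and 87 lower, against 112 and 274 in the fifth with the highest. In the fifth with the shortest exonic length the numbers were 150 and 391. Over 14223 genes, which are not independent of each other, Spearman's rho of the log2 fold change was -0.31 with GC content and 0.18 with exonic length. With that trend removed, 845 genes were called higher and 876 lower, and 1456 of these calls were shared with the 2033 calls above.

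Reads at the CRLM1 locus were counted in Antisense_NC and in no Ctrl_NC library. LINC01767, the gene of CRLM1, listed as RP4-710M16.2 (ENSG00000223956.1, chromosome 1, 56414918 to 56417137, plus strand), had 0, 0 and 0 counts in Ctrl_NC and 1161, 1172 and 977 counts in Antisense_NC, or 49.8 ± 0.307 CPM (SD, n = 3). Against a floor of 3 counts in a Ctrl_NC library, at most 0.165 CPM, its level was at least 301-fold higher. The strand used in counting is not given, so these reads cannot be assigned to the antisense transcript or to the gene. In CRLM1_NC, the cells given the sense RNA, the gene stood at 599 ± 10.5 CPM. PLPP3, the neighbouring gene for a lipid phosphate phosphatase (listed as PPAP2B), measured 5.399, 7.04 and 5.97 CPM in Ctrl_NC and 4.91, 5.23 and 4.09 CPM in Antisense_NC (log2 fold change -0.42, SE 0.16, adjusted p = 0.0222). Every Antisense_NC library lay below every Ctrl_NC library, and the groups did not overlap for 68.9% of all genes tested. The difference depended on single libraries and on the processing. In the edgeR fit the adjusted p was 0.136 without Ctrl_NC 2 and 0.111 without Antisense_NC 3. It was 0.182 there with all 18 libraries and 0.0502 with no filter on low counts. With limma it was 0.316 on the log2(FPKM + 0.1) scale and 0.308 on the log2(FPKM + 1) scale. PRKAA2, the next gene along, encodes a catalytic subunit of AMP-activated kinase, was chosen for its position after its values were seen, and had a log2 fold change of -0.84 (adjusted p = 2.5e-04). HNRNPK measured 463, 471 and 479.7 CPM in Ctrl_NC and 432, 434 and 424 CPM in Antisense_NC (log2 fold change -0.18, SE 0.033, adjusted p = 8.6e-06), a small fall. The fall did not pass with all 18 libraries in the edgeR fit (adjusted p = 0.421). On the 2 FPKM scales the sign turned, and the difference did not pass there (adjusted p = 0.157 and 0.159, limma).

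Several of the genes with the largest rises were regulators of the integrated stress response. CHAC1, an enzyme that breaks down glutathione (ENSG00000128965.11, chromosome 15, 40952962 to 40956512, plus strand), measured 1.54, 0.6403 and 1.38 CPM in Ctrl_NC and 52.2, 49.9 and 56.04 CPM in Antisense_NC. It was 44.2-fold higher (log2 fold change 5.47, SE 0.14, adjusted p = 9.0e-29). TRIB3, a pseudokinase that binds ATF4 (ENSG00000101255.10, chromosome 20, 362835 to 397559, plus strand), measured 17.4, 14.8 and 11.2 CPM in Ctrl_NC and 148, 161 and 162 CPM in Antisense_NC (log2 fold change 3.40, SE 0.092, adjusted p = 3.3e-15). SESN2, a sestrin that restrains the growth kinase mTORC1 (ENSG00000130766.4, chromosome 1, 28259518 to 28282491, plus strand), measured 56.5, 54.9 and 49.6 CPM in Ctrl_NC and 295, 305 and 301 CPM in Antisense_NC (log2 fold change 2.44, SE 0.045, adjusted p = 3.1e-33). CEBPG, a bZIP protein that pairs with ATF4, measured 18.7, 18.5 and 18.5 CPM in Ctrl_NC and 69.3, 74.00 and 74.5 CPM in Antisense_NC (log2 fold change 1.92, SE 0.066, adjusted p = 2.1e-24). In each of these 4 genes the lowest Antisense_NC library was above the highest Ctrl_NC library, and the groups did not overlap for 68.9% of all genes tested. ATF4 itself measured 223, 226 and 213 CPM in Ctrl_NC and 378, 403 and 395 CPM in Antisense_NC (log2 fold change 0.78, SE 0.036, adjusted p = 1.3e-20), with every Antisense_NC library above every Ctrl_NC library. DDIT3, which encodes the pro-apoptotic bZIP factor CHOP, measured 51.01, 59.1 and 50.5 CPM in Ctrl_NC and 109.9, 111 and 112 CPM in Antisense_NC (log2 fold change 1.00, SE 0.055, adjusted p = 2.4e-18), just short of the fold limit. ATF5, a further bZIP factor, was at a low level with 4.24, 5.36 and 6.29 CPM in Ctrl_NC and 9.82, 9.08 and 10.7 CPM in Antisense_NC (log2 fold change 0.84, SE 0.15, adjusted p = 4.9e-06).

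Other regulators on the same list fell. CEBPB, a bZIP factor of inflammation and stress, measured 362, 347 and 332 CPM in Ctrl_NC and 177, 183 and 194 CPM in Antisense_NC (log2 fold change -0.96, SE 0.039, adjusted p = 2.6e-22). ATF3, a stress-induced repressor, measured 417, 403 and 414 CPM in Ctrl_NC and 214, 235 and 226 CPM in Antisense_NC (log2 fold change -0.92, SE 0.036, adjusted p = 8.8e-23). PPP1R15A, the phosphatase subunit GADD34 that reverses eIF2alpha phosphorylation, measured 738, 773 and 748 CPM in Ctrl_NC and 446, 464 and 474 CPM in Antisense_NC (log2 fold change -0.76, SE 0.033, adjusted p = 1.9e-21). DDIT4, an inhibitor of mTORC1, was abundant and measured 3251, 3225 and 3204 CPM in Ctrl_NC and 1772, 1784 and 1922 CPM in Antisense_NC (log2 fold change -0.87, SE 0.03, adjusted p = 1.6e-24). The 3 libraries of each group lay apart for all 4 of these genes, as for 68.9% of all genes tested. STC2, a secreted stanniocalcin, fell, with a log2 fold change of -0.44, and GDF15, a stress cytokine, rose by 0.18 log2 units. Neither passed with all 18 libraries in the fit (adjusted p = 0.0502 and 0.453). EIF4EBP1, which holds back cap-dependent translation, had a log2 fold change of -0.13 whose direction turned with FPKM and with the GC and length trend removed. Of the 17 genes listed as ATF4 regulators, 16 were in the table and 14 passed the filter. Of these 8 rose and 6 fell, 4 were called higher and 0 lower, and the median log2 fold change was 0.48, beside -0.0025 over all genes. FGF21, a hormone that ATF4 induces in liver, did not pass the filter, with 0, 0 and 0 counts in Ctrl_NC and 8, 10 and 6 in Antisense_NC. NUPR1, a stress-induced chromatin protein, had 2, 6 and 4 counts in Ctrl_NC and 5, 2 and 12 in Antisense_NC and did not pass either.

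**Figure D2:**
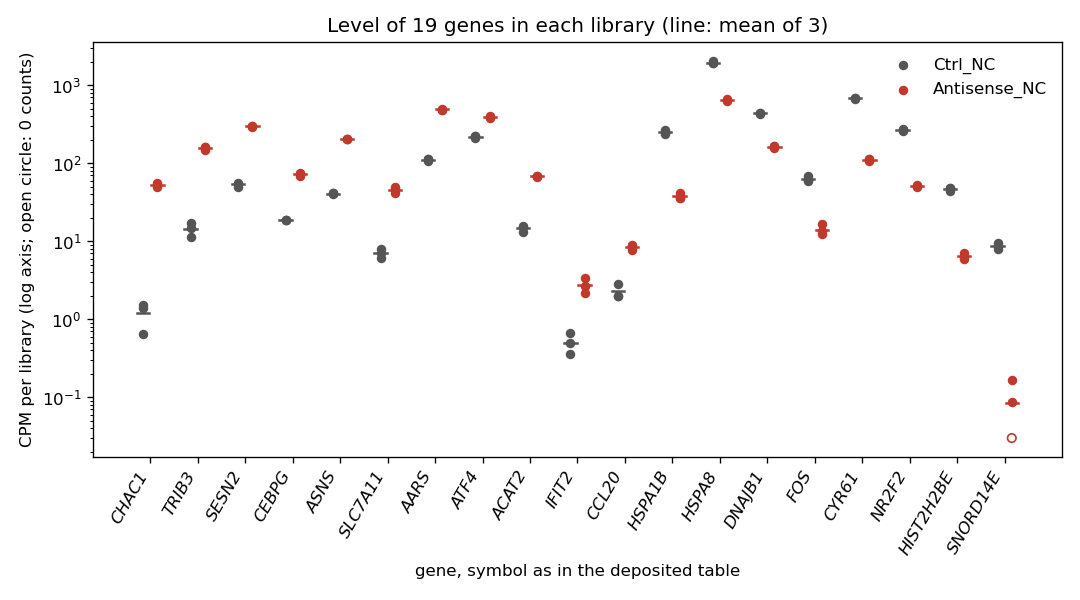
Points are the CPM of 19 genes in each of the 3 Ctrl_NC (grey) and 3 Antisense_NC (red) libraries on a log axis, lines are group means, and an open circle is a library with 0 counts. The libraries of a group lie close together for each gene and the 2 groups lie apart, from CHAC1 (0.640 to 1.54 against 49.9 to 56.0 CPM) to SNORD14E (7.88 to 9.54 against 0 to 0.169 CPM). The 19 genes were chosen with their values known, so their separation does not describe genes in general. Over all genes tested the groups did not overlap for 68.9%.

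The enzymes that make amino acids moved unevenly. ASNS, asparagine synthetase (ENSG00000070669.16, chromosome 7, 97851677 to 97872542, minus strand), measured 41.2, 41.5 and 39.9 CPM in Ctrl_NC and 204, 208 and 208 CPM in Antisense_NC (log2 fold change 2.29, SE 0.046, adjusted p = 4.9e-32). PSAT1, a transaminase of serine synthesis, measured 36.6, 33.7 and 36.7 CPM in Ctrl_NC and 124, 140.0 and 127 CPM in Antisense_NC (log2 fold change 1.82, SE 0.055, adjusted p = 4.1e-26). The transaminases GOT1 and GPT2 were called higher too, with log2 fold changes of 1.20 and 1.15, and CTH, which makes cysteine, rose by 0.79 log2 units. PYCRL, an enzyme of proline synthesis now named PYCR3, was called lower (log2 fold change -1.31, SE 0.19, adjusted p = 2.4e-07), and its Ctrl_NC libraries spread from 5.57 to 10.9 CPM. Of 19 enzymes tested of 21 listed, 9 rose, 5 fell and 5 did not pass the test, with a median of 0.058. The shares that rose and fell were 47.4% and 26.3%, beside 34.4% and 32.2% of all genes tested. With the trend on GC content and exonic length removed 3 fell, and on the FPKM scale 1 did.

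Amino acid transporters rose together. SLC7A11, the cystine importer (ENSG00000151012.13, chromosome 4, 138164097 to 138242349, minus strand), measured 7.05, 7.96 and 6.11 CPM in Ctrl_NC and 46.3, 49.7 and 42.02 CPM in Antisense_NC (log2 fold change 2.66, SE 0.097, adjusted p = 1.3e-23). SLC7A5, which imports leucine and other large neutral amino acids (ENSG00000103257.8, chromosome 16, 87830023 to 87869507, minus strand), was among the 10 most abundant called genes and measured 361, 349.7 and 372 CPM in Ctrl_NC and 1303, 1338 and 1319 CPM in Antisense_NC (log2 fold change 1.82, SE 0.032, adjusted p = 1.0e-33). SLC1A4, a carrier of alanine, serine and cysteine, was low and measured 0.606, 1.201 and 1.204 CPM in Ctrl_NC and 6.203, 4.47 and 5.94 CPM in Antisense_NC (log2 fold change 2.37, SE 0.24, adjusted p = 6.5e-11). The glycine carrier SLC6A9, the lysosomal arginine sensor SLC38A9 and the leucine carrier SLC43A1 were called higher by 1.59, 1.54 and 1.47 log2 units. Of 16 transporters tested of 17 listed, 12 rose, 0 fell and 4 did not pass the test. 7 were called higher and 0 lower, beside 7.19% and 6.94% of all genes tested, and the median was 0.98. The summed level of the listed transporters was 1442 to 1484 CPM in Ctrl_NC and 3211 to 3286 CPM in Antisense_NC.

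The cytosolic aminoacyl-tRNA synthetases, which load tRNAs with their amino acids, also rose as a group. AARS, for alanine (ENSG00000090861.15, chromosome 16, 70251983 to 70289707, minus strand), measured 107, 112 and 114 CPM in Ctrl_NC and 482, 501 and 489.9 CPM in Antisense_NC (log2 fold change 2.09, SE 0.037, adjusted p = 1.5e-33). CARS, for cysteine, measured 29.6, 28.9 and 30.5 CPM in Ctrl_NC and 122, 128 and 126 CPM in Antisense_NC (log2 fold change 2.03, SE 0.053, adjusted p = 3.8e-28). TARS, GARS, SARS and YARS, for threonine, glycine, serine and tyrosine, were called higher by 1.87, 1.72, 1.31 and 1.18 log2 units. All 20 listed synthetases passed the filter, and 16 rose, 3 fell and 1 did not pass the test. 7 were called higher and 0 lower, beside 7.19% and 6.94% of all genes tested. The median was 0.71, with single values from -0.45 to 2.09.

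ATF4 binds DNA with C/EBP partners at composite elements, and promoters of the 4 lists were searched for a short form of such an element, TGATGNAA, on both strands. Promoters were RefSeq windows on GRCh38.p14 from 250 bases before to 50 bases after the start of the gene. The letters were in 1003 of all 27305 windows (3.67%) and in 159 of 10355 windows of tested genes (1.54%). They were in 2 of 13 windows of the ATF4 regulators, 3 of 13 of the synthesis enzymes, 4 of 15 of the transporters and 6 of 16 of the synthetases. Of 6 synthetases called higher with a window 4 held them, and of 6 transporters called higher 0 did. A match describes the letters of the window and is not a bound site. The stretches around the match in the 4 called genes whose match lies wholly before the start are shown with the match in capitals, 5′ to 3′ along the strand of the gene, because CHAC1, GOT1 and AARS (AARS1 in RefSeq) hold the same 8 letters in reverse orientation.
CHAC1, chr15:40953242-40953289, plus strand: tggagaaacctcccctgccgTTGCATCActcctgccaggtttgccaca
ASNS, chr7:97872449-97872496, minus strand: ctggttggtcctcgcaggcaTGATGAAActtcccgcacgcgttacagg
GOT1, chr10:99430795-99430842, minus strand: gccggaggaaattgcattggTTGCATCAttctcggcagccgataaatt
AARS1, chr16:70289666-70289713, minus strand: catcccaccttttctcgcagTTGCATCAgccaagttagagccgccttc
ATF3, which fell, held the letters as well, 191 bases before its start.

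Genes of the unfolded protein response in the endoplasmic reticulum rose and fell in shares near those over all genes tested (37.5% rose and 41.7% fell, beside 34.4% and 32.2%). The stress sensors ATF6 and EIF2AK3 (the eIF2alpha kinase PERK) rose, ATF6 from 29.8, 27.6 and 28.98 CPM to 67.6, 67.2 and 64.4 CPM (log2 fold change 1.16, SE 0.063, adjusted p = 1.9e-18) and EIF2AK3 by 0.96 log2 units. XBP1, the factor spliced in the unfolded protein response, and SYVN1, a ubiquitin ligase of that organelle, rose by 0.81 and 0.68 log2 units. HSPA5, the main chaperone BiP (ENSG00000044574.7, chromosome 9, 125234853 to 125241382, minus strand), measured 4141, 4121 and 4071 CPM in Ctrl_NC and 2100.0, 2203 and 2123 CPM in Antisense_NC (log2 fold change -0.99, SE 0.028, adjusted p = 2.6e-27), a fall that stayed just short of the fold limit. Its cofactor SDF2L1 was called lower, with 85.99, 92.2 and 83.9 CPM in Ctrl_NC and 34.4, 37.3 and 39.6 CPM in Antisense_NC (log2 fold change -1.29, SE 0.06, adjusted p = 1.5e-20). Of 24 genes listed and tested, 9 rose, 10 fell and 5 did not pass the test, and the median of -0.017 changed sign in several alternative fits.

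Heat shock proteins fell more often than they rose. HSPA1B, the stress-inducible HSP70 (ENSG00000204388.6, chromosome 6, 31827738 to 31830254, plus strand), measured 265, 255 and 235 CPM in Ctrl_NC and 36.2, 36.5 and 42.02 CPM in Antisense_NC (log2 fold change -2.77, SE 0.053, adjusted p = 1.0e-30). It is nearly identical to HSPA1A, which did not pass the filter with 15, 10 and 14 counts in Ctrl_NC and 2, 2 and 4 in Antisense_NC, so reads of the 2 genes are uncertain in their split. HSPA8, the constitutive HSC70 (ENSG00000109971.13, chromosome 11, 123057489 to 123063230, minus strand), measured 1912, 2040.4 and 1944 CPM in Ctrl_NC and 650.5, 678 and 629 CPM in Antisense_NC (log2 fold change -1.64, SE 0.033, adjusted p = 4.9e-32). DNAJB1, the HSP40 that delivers clients to them, measured 448, 431 and 446 CPM in Ctrl_NC and 158, 165 and 169 CPM in Antisense_NC (log2 fold change -1.48, SE 0.036, adjusted p = 2.4e-29). For these 3 genes no Antisense_NC library reached any Ctrl_NC library, and the groups did not overlap for 68.9% of all genes tested. The small heat shock protein HSPB1 measured 848, 810.4 and 825 CPM in Ctrl_NC and 442, 442 and 464 CPM in Antisense_NC (log2 fold change -0.93, SE 0.032, adjusted p = 2.1e-24), and the mitochondrial co-chaperonin HSPE1 fell, with a log2 fold change of -0.95. The HSP90 genes HSP90AA1 and HSP90AB1, the HSP90 activator AHSA1 and the exchange factor HSPH1 had log2 fold changes of -0.58, -0.54, -0.63 and -0.65. The chaperonin HSPD1 was lower, with a log2 fold change of -0.25, while HSPA4, DNAJA1, the transcription factor HSF1 and the co-chaperone BAG3 were higher by 0.55, 0.33, 0.22 and 0.13 log2 units. With all 18 libraries in the fit HSP90AA1, HSPH1, HSPD1, DNAJA1, HSF1 and BAG3 did not pass the test, and HSPD1 did not on the FPKM scale nor DNAJA1 with the GC and length trend removed. BAG3 had an adjusted p of 0.084 without Ctrl_NC 2 and 0.0915 without Antisense_NC 1 in the edgeR fit. CHORDC1, an HSP90 cofactor, did not pass the test (log2 fold change -0.10, SE 0.098, adjusted p = 0.375), its sign turned on the FPKM scale, and without Ctrl_NC 1 its adjusted p was 0.0374. CRYAB, a small heat shock protein, had no count in the 6 libraries. Of 17 genes listed, 15 were tested. Among them 4 rose, 10 fell and 1 did not pass the test, 3 were called lower and 0 higher, and the median was -0.58. Their summed level was 8004 to 8089 CPM in Ctrl_NC and 4702 to 4887 CPM in Antisense_NC.

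Among the falls with the widest margin were those of 3 small nucleolar RNAs that lie inside HSPA8, on its strand. snoRNAs of the C/D class guide methylation of ribosomal RNA and are usually processed from introns of a host gene. SNORD14E had 143, 218 and 214 counts in Ctrl_NC and 2, 4 and 0 in Antisense_NC, SNORD14C 91, 157 and 130 counts in Ctrl_NC and 1, 3 and 1 in Antisense_NC and SNORD14D 99, 137 and 139 counts in Ctrl_NC and 1, 3 and 1 in Antisense_NC. From the summed counts, 1.03% (exact 95% interval 0.376 to 2.26%) of the Ctrl_NC level was left for SNORD14E, 1.31% (exact 95% interval 0.421 to 3.07%) for SNORD14C and 1.32% (exact 95% interval 0.425 to 3.098%) for SNORD14D, and these intervals cover counting error only. The fitted log2 fold changes of -6.56, -6.19 and -6.19 rest on so few Antisense_NC counts that their size is uncertain. The genes of the 3 snoRNAs on GRCh38 are shown because they mark the place of the fall, with the C box letters TGATGA and the D box letters CTGA in capitals, 5′ to 3′ along the minus strand.
SNORD14E, chr11:123058077-123058161, minus strand: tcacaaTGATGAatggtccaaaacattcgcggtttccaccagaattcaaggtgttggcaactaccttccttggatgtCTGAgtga
SNORD14C, chr11:123059335-123059422, minus strand: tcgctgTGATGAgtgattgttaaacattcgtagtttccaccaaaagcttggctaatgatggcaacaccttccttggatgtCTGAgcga
SNORD14D, chr11:123058909-123058995, minus strand: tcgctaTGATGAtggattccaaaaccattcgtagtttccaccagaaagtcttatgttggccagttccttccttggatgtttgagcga
The 3 share an unbroken run of 14 letters, ccttccttggatgt, just before the D box, and SNORD14D holds no CTGA. Reads of an unspliced HSPA8 transcript over these positions cannot be told apart from reads of the mature snoRNAs.

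Other snoRNAs fell too. SNORD46 had 31, 33 and 39 counts in Ctrl_NC and 3, 1 and 0 in Antisense_NC, SNORA48 had 22, 26 and 26 in Ctrl_NC and 2, 1 and 1 in Antisense_NC, and SNORD54 had 35, 34 and 39 in Ctrl_NC and 4, 6 and 2 in Antisense_NC. SNORA48 lies in the EIF4A1 locus and SNORD54 within RPS20. Of 313 snoRNA genes in the table, 62 passed the filter. Among those 47 fell and 1 rose, 43 were called lower, and the median was -1.35. A snoRNA at a low level passes the filter only through the group where it is higher, so these counts do not describe all snoRNAs. With the trend on GC content and exonic length removed, 26 fell, 24 were called lower and the median was -0.62. Of these, 61 lay inside another tested gene on the same strand, 35 genes in all. With the trend left in, the snoRNA had a lower log2 fold change than its host in 56 of 61 pairs. The median of the host values over these pairs was -0.50, with a host counted once for each of its snoRNAs. The pairs hold only snoRNAs that passed the filter, and they were not compared with the trend removed. Of the 35 distinct hosts 30 fell and 2 rose. Several snoRNAs share a host, so the pairs are not independent. Without Ctrl_NC 1 the snoRNAs that rose numbered 2, and without Ctrl_NC 2 0. Among noncoding hosts, SNHG4 was called lower (log2 fold change -1.35, SE 0.27, adjusted p = 4.1e-05), SNHG3, SNHG7, DANCR and SNHG8 fell, with log2 fold changes of -0.84, -0.69, -0.58 and -0.56. Of 18 such hosts listed and tested 13 fell and 0 rose, against 8 and 2 on the FPKM scale.

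**Figure D3:**
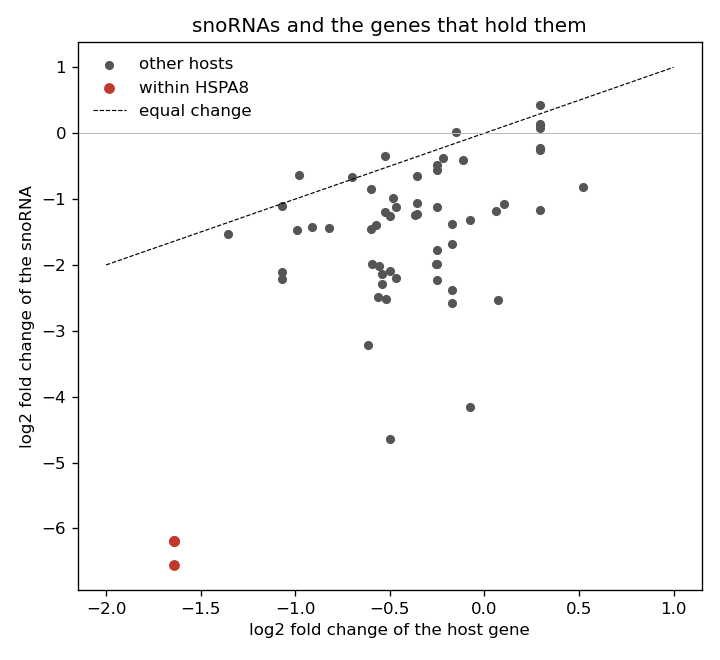
Each point is 1 of the 61 tested snoRNAs that lie inside another tested gene, with the log2 fold change (Antisense_NC over Ctrl_NC) of its host gene on the horizontal axis and its own on the vertical axis. The dashed line marks equal change. In 56 of 61 pairs the snoRNA lies below the line, and the red points are the 3 snoRNAs within HSPA8, of which SNORD14C and SNORD14D overlap at -6.19. Only snoRNAs that passed the filter are shown, from the fit with the GC and length trend left in.

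Replication-dependent histone genes, whose mRNAs end in a stem-loop and carry no poly(A) tail when cells divide, were lower. HIST2H2BE, now H2BC21 (ENSG00000184678.9, chromosome 1, 149884459 to 149886682, minus strand), measured 44.7, 48.3 and 47.9 CPM in Ctrl_NC and 5.99, 6.29 and 7.06 CPM in Antisense_NC (log2 fold change -2.92, SE 0.092, adjusted p = 1.1e-25). HIST2H2BF had 97, 145 and 142 counts in Ctrl_NC and 6, 4 and 0 in Antisense_NC, and HIST2H2AA4 had 67, 69 and 90 in Ctrl_NC and 5, 2 and 7 in Antisense_NC. The latter has a near-identical copy, HIST2H2AA3, so its count is uncertain. HIST3H2BB, HIST1H2BJ and HIST1H3H were called lower with log2 fold changes of -3.01, -2.52 and -2.28. Of 54 listed histone genes 17 passed the filter, 0 rose, 11 fell and 6 did not pass the test, and all 11 that fell were called. The share that fell was 64.7%, beside 32.2% of all genes tested, and 6.94% of all genes were called lower. A histone gene at a low level can pass the filter only through the group where it is higher, so these counts do not describe all histone genes. The summed level of all listed histone genes was 208 to 227 CPM in Ctrl_NC and 58.3 to 69.8 CPM in Antisense_NC.

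Ribosomal protein genes fell by small amounts. Of 77 tested of 81, 1 rose, 70 fell and 6 did not pass the test, with a median of -0.50, and 3 were called. RPS12 measured 939.6, 957 and 852 CPM in Ctrl_NC and 432, 443 and 479 CPM in Antisense_NC (log2 fold change -1.07, SE 0.04, adjusted p = 1.6e-19) and RPL31 572, 553 and 541 CPM in Ctrl_NC and 265, 265 and 292 CPM in Antisense_NC (log2 fold change -1.07, SE 0.037). RPS3A and RPLP1 had log2 fold changes of -0.98 and -0.95. RPS10, at 3.69, 2.04 and 3.299 CPM in Ctrl_NC and 0.818, 0.591 and 0.665 CPM in Antisense_NC, had the lowest value (-2.14) but shares its exons with a read-through gene and many pseudogenes, so its level is uncertain. The summed level of the listed ribosomal protein genes was 100426 to 100527 CPM in Ctrl_NC and 73793 to 77485 CPM in Antisense_NC. MYC, a transcription factor that drives ribosome production and 1 of the 10 most abundant called genes, measured 949.5, 923 and 917 CPM in Ctrl_NC and 467, 467 and 464 CPM in Antisense_NC (log2 fold change -1.05, SE 0.031, adjusted p = 2.1e-26).

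Most genes of the mitochondrial genome rose, and most nuclear genes of the respiratory chain fell. Mitochondrial DNA encodes a few subunits with their tRNAs and rRNAs, and the nucleus encodes the others. MT-ND1, a subunit of complex I, measured 1051, 973 and 1091 CPM in Ctrl_NC and 2433, 2565 and 2285 CPM in Antisense_NC (log2 fold change 1.18, SE 0.04, adjusted p = 1.1e-17), and MT-ND2 measured 171, 161 and 168 CPM in Ctrl_NC and 658, 714 and 609.6 CPM in Antisense_NC (log2 fold change 1.94, SE 0.043, adjusted p = 1.8e-25). The tRNA genes MT-TF, MT-TT, MT-TV and MT-TQ were called higher by 2.19, 2.12, 1.63 and 2.76 log2 units, the last with Antisense_NC libraries from 0.971 to 4.14 CPM. MT-TS1 was called lower at 0.661, 0.7604 and 0.802 CPM in Ctrl_NC and 0.172, 0.0844 and 0.154 CPM in Antisense_NC. MT-CYB, a subunit of complex III, fell as well, with 2958, 2888 and 3062 CPM in Ctrl_NC and 1931, 2022 and 1871 CPM in Antisense_NC (log2 fold change -0.66, SE 0.03, adjusted p = 9.2e-21). This gene was chosen after its values were seen. Of 26 mitochondrial genome genes tested of 36, 22 rose, 2 fell and 2 did not pass the test, and the median was 0.60. They took 4.09, 4.06 and 4.24% of counts in Ctrl_NC and 6.91, 7.17 and 6.64% in Antisense_NC. The exact two-sided permutation test gave p = 0.1, the smallest that 3 against 3 libraries allow. Of 78 nuclear genes tested of 93 listed for complexes I to V, 2 rose, 64 fell and 12 did not pass the test, with a median of -0.37. NDUFA1 measured 79.3, 81.3 and 82.2 CPM in Ctrl_NC and 28.7, 27.5 and 34.6 CPM in Antisense_NC (log2 fold change -1.47, SE 0.066, adjusted p = 7.0e-21), and NDUFA2 and ATP5G1 were called lower, with log2 fold changes of -1.27 and -1.01. ATP5J2 and NDUFS3 fell, with log2 fold changes of -0.89 and -0.79. NDUFA4L2, a hypoxia-induced paralog rather than a core subunit, was called higher by 1.64 log2 units at 0.0551, 0.2801 and 0.357 CPM in Ctrl_NC and 0.603, 1.18 and 0.563 CPM in Antisense_NC. It did not pass without Antisense_NC 2 (adjusted p = 0.09 in the edgeR fit), which left 1 nuclear gene higher. On the FPKM scale 38 nuclear genes fell and the median was -0.14.

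Enzymes of cholesterol synthesis rose nearly throughout. ACAT2, which makes acetoacetyl-CoA (ENSG00000120437.8, chromosome 6, 159762045 to 159779112, plus strand), measured 13.3, 15.05 and 15.6 CPM in Ctrl_NC and 68.01, 67.8 and 68.2 CPM in Antisense_NC (log2 fold change 2.16, SE 0.072, adjusted p = 7.9e-25), and SC5D, an enzyme near the end of the pathway, 15.4, 12.8 and 16.3 CPM in Ctrl_NC and 56.4, 60.8 and 57.5 CPM in Antisense_NC (log2 fold change 1.93, SE 0.079). MVK, IDI1 and SQLE, which phosphorylate mevalonate, isomerise isopentenyl diphosphate and oxidise squalene, were called higher by 1.83, 1.66 and 1.62 log2 units. All 25 listed genes passed the filter and lay apart between the groups, and 68.9% of all genes tested lay apart too. 23 rose, 2 fell, 12 were called higher and 0 lower, and the median was 0.94. Their summed level was 2808 to 2878 CPM in Ctrl_NC and 5467 to 5649.9 CPM in Antisense_NC. A sterol response element in the form TCACNCCAC was in 1 of 18 of their promoter windows (SREBF2, the gene of SREBP2 itself), beside 1.15% of all windows.

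Fatty acid genes rose less. ACSS2, which makes acetyl-CoA from acetate, was called higher at 59.99, 68.6 and 66.7 CPM in Ctrl_NC and 181, 199.6 and 191 CPM in Antisense_NC (log2 fold change 1.496, SE 0.049, adjusted p = 3.0e-25). SCD, the delta-9 desaturase, ACSL3, ELOVL6, FASN (fatty acid synthase) and SREBF1 rose by 0.86, 0.71, 0.63, 0.62 and 0.56 log2 units, though FASN and SREBF1 did not pass with all 18 libraries in the fit. Of 13 listed and tested, 10 rose, 1 fell and 2 did not pass the test, and the median was 0.47.

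Immediate early genes, the first to answer growth factors and stress, mostly fell. FOS (ENSG00000170345.9, chromosome 14, 75278826 to 75282230, plus strand) measured 69.2, 60.3 and 59.7 CPM in Ctrl_NC and 12.4, 13.5 and 16.5 CPM in Antisense_NC (log2 fold change -2.22, SE 0.084, adjusted p = 3.6e-23), and DUSP1, the phosphatase that switches off MAP kinases, 749, 692 and 711 CPM in Ctrl_NC and 164, 157 and 161 CPM in Antisense_NC (log2 fold change -2.20, SE 0.036, adjusted p = 2.2e-34). The AP-1 subunits JUN and JUNB fell to 210.2, 194 and 215 CPM and 678, 686 and 738 CPM, from 602, 594 and 597 CPM and 1531, 1497 and 1461 CPM, with log2 fold changes of -1.58 and -1.14. EGR2 and EGR3, zinc finger factors at low levels, went the other way with 0.551, 0.4802 and 0.312 CPM in Ctrl_NC and 2.97, 2.36 and 2.97 CPM in Antisense_NC (log2 fold change 2.58, SE 0.33, adjusted p = 1.2e-08) for EGR2 and a log2 fold change of 1.92 for EGR3. Of 19 listed and tested, 3 rose, 14 fell and 2 did not pass the test, 6 were called lower and 2 higher, and the median was -0.63. Of the 10 lowest called genes of at least 5 CPM, 2 encode matricellular proteins of the CCN family. CYR61, now CCN1 (ENSG00000142871.15, chromosome 1, 85580761 to 85584589, plus strand), measured 682, 693 and 674 CPM in Ctrl_NC and 106, 113 and 114 CPM in Antisense_NC (log2 fold change -2.67, SE 0.037, adjusted p = 8.2e-37). CTGF, now CCN2, measured 65.9, 60.8 and 64.9 CPM in Ctrl_NC and 12.1, 12.7 and 12.8 CPM in Antisense_NC (log2 fold change -2.39, SE 0.074, adjusted p = 6.0e-26).

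Feedback regulators and ligands of the ERK pathway were divided. The inhibitor SPRY2 was called lower at 12.7, 11.7 and 16.4 CPM in Ctrl_NC and 7.71, 6.21 and 5.94 CPM in Antisense_NC (log2 fold change -1.08, SE 0.14, adjusted p = 9.4e-09), and SPRY1 and the phosphatase DUSP5 fell, with log2 fold changes of -0.73 and -0.66. SPRY4, SPRED1 and the ligand EREG (epiregulin) rose by 0.82, 0.88 and 0.83 log2 units. Of 18 listed and tested, 10 rose, 6 fell and 2 did not pass the test. The shares that rose and fell were 55.6% and 33.3%, beside 34.4% and 32.2% of all genes tested. Chemokine genes rose. CXCL8, which attracts neutrophils (ENSG00000169429.10, chromosome 4, 73740519 to 73743716, plus strand), measured 55.1, 49.9 and 50.5 CPM in Ctrl_NC and 124, 127 and 122 CPM in Antisense_NC (log2 fold change 1.22, SE 0.05, adjusted p = 5.2e-22), CXCL1 34.7, 33.02 and 34.99 CPM in Ctrl_NC and 78.01, 75.9 and 78.5 CPM in Antisense_NC (log2 fold change 1.13, SE 0.058) and CCL20, the CCR6 ligand, 1.98, 2.001 and 2.85 CPM in Ctrl_NC and 8.66, 7.68 and 8.96 CPM in Antisense_NC (log2 fold change 1.83, SE 0.18). CXCL3, CXCL2 and the adhesion molecule ICAM1 were called higher by 1.35, 1.12 and 1.13 log2 units. Of 17 chemokine and NF-kappaB feedback genes tested of 20 listed, 14 rose, 1 fell and 2 did not pass the test, 8 were called higher and 0 lower, and the median was 0.52.

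Interferon-stimulated genes did not move as a block. IFIT2, IFIT3 and IFIT1, which bind or restrain viral RNA, were at low levels. IFIT2 measured 0.661, 0.3602 and 0.4904 CPM in Ctrl_NC and 2.71, 3.42 and 2.15 CPM in Antisense_NC (log2 fold change 2.43, SE 0.33, adjusted p = 3.8e-08), IFIT3 0.441, 0.5203 and 0.0892 CPM in Ctrl_NC and 1.98, 1.69 and 2.25 CPM in Antisense_NC (log2 fold change 2.42, SE 0.40) and IFIT1 0.551, 0.04002 and 0.535 CPM in Ctrl_NC and 0.948, 1.77 and 1.48 CPM in Antisense_NC (log2 fold change 1.91, SE 0.46). IFIT5, outside the list but among the 10 highest called genes, measured 0.937, 1.401 and 1.03 CPM in Ctrl_NC and 10.6, 8.105 and 8.700 CPM in Antisense_NC (log2 fold change 2.95, SE 0.20, adjusted p = 1.4e-15). DDX58, the RNA sensor RIG-I, measured 5.45, 5.48 and 4.15 CPM in Ctrl_NC and 16.97, 16.97 and 17.04 CPM in Antisense_NC (log2 fold change 1.71, SE 0.13). IFIH1, the RNA sensor MDA5, measured 9.14, 9.605 and 8.25 CPM in Ctrl_NC and 20.2, 23.4 and 21.4 CPM in Antisense_NC (log2 fold change 1.22, SE 0.11), and OASL, a related antiviral protein, rose by 1.51 log2 units. Of 18 genes tested of 25 listed, 9 rose, 5 fell and 4 did not pass the test. The shares that rose and fell were 50% and 27.8%, beside 34.4% and 32.2% of all genes tested. 6 were called higher and 0 lower, and the median was 0.20. Without Ctrl_NC 2, Antisense_NC 1 or Antisense_NC 2 the number that fell was 3. Their summed level was 588 to 627 CPM in Ctrl_NC and 619 to 629.9 CPM in Antisense_NC, ranges that overlapped. The core of the interferon response element, GAAANNGAA on either strand, was in 12 of 14 promoter windows of tested list members, in 2264 of all 27305 windows (8.29%) and in 6.09% of those of tested genes. BST2, which tethers virus particles, fell (log2 fold change -0.92) and held it too. It was chosen after its values were seen. The stretches of IFIT1, IFIT3 and IFIH1, which were called higher, and of BST2 are shown with the matches within each stretch in capitals, to set side by side promoters that share the element and moved apart.
IFIT1, chr10:89392488-89392549, plus strand: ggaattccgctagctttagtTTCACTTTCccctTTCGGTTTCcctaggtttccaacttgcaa
IFIT3, chr10:89327822-89327904, plus strand: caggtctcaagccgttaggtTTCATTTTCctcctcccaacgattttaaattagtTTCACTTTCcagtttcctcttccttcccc
IFIH1, chr2:162318808-162318868, minus strand: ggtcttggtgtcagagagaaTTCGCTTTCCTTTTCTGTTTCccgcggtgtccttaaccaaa
BST2, chr19:17405726-17405780, minus strand: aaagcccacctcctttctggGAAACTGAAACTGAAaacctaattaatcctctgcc
In the stretches of IFIT1, IFIT3 and IFIH1 the letters lie on the opposite strand, and in those of BST2 and IFIH1 the matches overlap each other. The window of IFIH1 holds a further match on its own strand outside the stretch.

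Most glycolytic and hypoxia-responsive genes fell, and most of these falls stayed short of the fold limit. ADM, the peptide adrenomedullin (ENSG00000148926.9, chromosome 11, 10305073 to 10307397, plus strand), was among the most abundant called genes and measured 2304, 2348 and 2285 CPM in Ctrl_NC and 857, 848 and 920.0 CPM in Antisense_NC (log2 fold change -1.45, SE 0.032, adjusted p = 8.1e-31). VEGFA, the vascular growth factor, measured 804, 767 and 771 CPM in Ctrl_NC and 414, 422 and 423 CPM in Antisense_NC (log2 fold change -0.94, SE 0.032, adjusted p = 1.0e-24). ANKRD37 was called lower, with a log2 fold change of -1.05, and the glycolytic PFKM and PFKFB3 fell, with log2 fold changes of -0.90 and -0.85. CA9, carbonic anhydrase IX and itself a hypoxia-induced gene, was called higher at 13.99, 11.4 and 11.99 CPM in Ctrl_NC and 32.5, 31.3 and 29.9 CPM in Antisense_NC (log2 fold change 1.29, SE 0.092, adjusted p = 5.6e-15). Of 29 listed and tested, 3 rose, 22 fell and 4 did not pass the test, 2 were called lower and 1 higher, and the median was -0.48. ANGPTL4, a lipase inhibitor that fasting and hypoxia induce, was among the abundant called genes at 1457, 1462 and 1432 CPM in Ctrl_NC and 624, 605 and 653 CPM in Antisense_NC (log2 fold change -1.26, SE 0.032, adjusted p = 9.5e-29). Among targets of p53, MDM2, its ubiquitin ligase, measured 48.8, 47.02 and 47.6 CPM in Ctrl_NC and 100.3, 110.3 and 95.7 CPM in Antisense_NC (log2 fold change 1.05, SE 0.055, adjusted p = 6.3e-19), and XPC, a DNA damage sensor, was called higher by 1.25 log2 units. TIGAR, SESN1 and FDXR rose by 0.92, 0.82 and 0.82 log2 units, and the kinase PLK2 fell, with a log2 fold change of -0.94. Of 22 listed and tested, 13 rose, 4 fell and 5 did not pass the test, with a median of 0.21. Of these 2 were called higher and 0 lower, against 1 and 1 with the GC and length trend removed.

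Targets of NRF2, the oxidative stress factor, were evenly divided, with iron storage and quinone reduction lower. FTH1 and FTL, the ferritin chains, measured 6792, 6556 and 6602 CPM in Ctrl_NC and 2957, 3035 and 3180.0 CPM in Antisense_NC for FTH1 (log2 fold change -1.17, SE 0.028, adjusted p = 2.3e-29) and 5787, 5602 and 5797 CPM in Ctrl_NC and 3122, 3221 and 3276 CPM in Antisense_NC for FTL (log2 fold change -0.89, SE 0.027, adjusted p = 5.2e-26). FTH1 was the most abundant called gene. NQO1, quinone dehydrogenase, measured 803, 803 and 828 CPM in Ctrl_NC and 353, 366 and 375 CPM in Antisense_NC (log2 fold change -1.20, SE 0.033, adjusted p = 8.9e-28). HMOX1, heme oxygenase, GCLC, which starts glutathione synthesis, and the exporter ABCC2 were higher by 0.88, 0.80 and 1.01 log2 units. Of 15 tested of 18 listed, 7 rose, 7 fell and 1 did not pass the test. The share was 46.7% in each direction, beside 34.4% and 32.2% of all genes tested that rose and fell.

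Genes of mitosis rose more often than they fell. MKI67, the proliferation marker, measured 89.2, 88.3 and 86.3 CPM in Ctrl_NC and 265, 272 and 216 CPM in Antisense_NC (log2 fold change 1.46, SE 0.077, adjusted p = 9.8e-09), and the mitotic kinesins KIF23 and KIF11 were called higher by 1.27 and 1.16 log2 units. CENPF, TPX2 and TTK rose by 0.92, 0.83 and 0.78 log2 units. Of 25 listed and tested, 17 rose, 3 fell and 5 did not pass the test, with a median of 0.30. Of these 3 were called higher, against 1 with the GC and length trend removed. Replication genes rose and fell in shares near those over all genes tested (37.1% rose and 37.1% fell, beside 34.4% and 32.2%). E2F1, which turns on S phase genes, was called lower at 84.5, 77.3 and 80.4 CPM in Ctrl_NC and 38.03, 32.9 and 37.3 CPM in Antisense_NC (log2 fold change -1.21, SE 0.062, adjusted p = 2.7e-19), and CCNE1, UNG and MCM4 fell, with log2 fold changes of -0.80, -0.78 and -0.77. GINS3 and MCM10 rose by 0.95 and 0.89 log2 units. Of 35 listed and tested, 13 rose, 13 fell and 9 did not pass the test.

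The labelled cell type was present in both groups. Of 8 colorectal epithelium markers 6 passed the filter, among them KRT8 at 2715, 2749.9 and 2539 CPM in Ctrl_NC and 1750.3, 1707 and 1856 CPM in Antisense_NC (log2 fold change -0.64, SE 0.033) and EPCAM at 293, 310.4 and 295 CPM in Ctrl_NC and 254, 268 and 252 CPM in Antisense_NC (log2 fold change -0.27, SE 0.037). KRT19 and KRT18 fell, with log2 fold changes of -0.27 and -0.29, and CDH1 rose by 0.62 log2 units. The falls of EPCAM, KRT18 and KRT19 passed neither on the FPKM scale nor with all 18 libraries in the fit. Of 7 fibroblast markers COL1A1 alone passed the filter, and the summed level of those in the table was 20.4 to 25.2 CPM in Ctrl_NC and 29.3 to 32.9 CPM in Antisense_NC. Of 7 leukocyte and 5 endothelial markers none did. The summed level was 0.4402 to 0.606 CPM in Ctrl_NC and 0.0512 to 0.422 CPM in Antisense_NC for the leukocyte markers in the table, and 0.3602 to 0.401 CPM and 0.0512 to 0.302 CPM for the endothelial ones. TJP1 and OCLN, tight junction proteins, were called higher, TJP1 at 27.1, 24.6 and 25.9 CPM in Ctrl_NC and 79.7, 90.4 and 75.3 CPM in Antisense_NC (log2 fold change 1.62, SE 0.067, adjusted p = 5.6e-22) and OCLN by 1.17 log2 units. The intestinal factor CDX2 and the epithelial factor GRHL2 were called higher by 1.28 and 1.02 log2 units, and the epithelial factor ELF3 fell, with a log2 fold change of -0.68. Of 16 epithelial genes tested of 22 listed, 8 rose, 6 fell and 2 did not pass the test. The shares that rose and fell were 50% and 37.5%, beside 34.4% and 32.2% of all genes tested. Of 10 mesenchymal genes tested of 17 listed, 0 rose, 7 fell and 3 did not pass the test, with a median of -0.65. S100A4 measured 471, 514 and 459 CPM in Ctrl_NC and 222, 209.9 and 243 CPM in Antisense_NC (log2 fold change -1.15, SE 0.049, adjusted p = 4.1e-14), and VIM, vimentin, was called lower at 3.47, 2.16 and 3.299 CPM in Ctrl_NC and 1.55, 1.18 and 1.28 CPM in Antisense_NC. SNAI1, FN1 and LGALS1 fell, with log2 fold changes of -0.90, -0.66 and -0.64.

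Targets of Wnt signalling fell more often than they rose. SOX9, a factor of intestinal progenitors (ENSG00000125398.5, chromosome 17, 72121020 to 72126416, plus strand), measured 652, 609 and 629 CPM in Ctrl_NC and 301, 303 and 286 CPM in Antisense_NC (log2 fold change -1.13, SE 0.035, adjusted p = 4.7e-26). NOTUM, a secreted Wnt deacylase, measured 40.4, 34.4 and 36.2 CPM in Ctrl_NC and 12.6, 12.96 and 14.6 CPM in Antisense_NC (log2 fold change -1.52, SE 0.088, adjusted p = 1.3e-17), and AXIN2, a feedback inhibitor at a low level, 2.97, 3.602 and 2.67 CPM in Ctrl_NC and 1.46, 1.18 and 1.07 CPM in Antisense_NC (log2 fold change -1.36, SE 0.25). TCF7 and RNF43 fell, with log2 fold changes of -0.97 and -0.51. Of 11 tested of 15 listed, 2 rose, 7 fell and 2 did not pass the test. Without Ctrl_NC 2 or Antisense_NC 1 the number that rose was 1. In the BMP and SMAD list the inhibitory SMAD6 and SMAD7 and the decoy receptor BAMBI were called lower, with log2 fold changes of -1.39, -1.33 and -1.02. SMURF2, a ubiquitin ligase for SMADs, was called higher at 68.8, 73.3 and 75.4 CPM in Ctrl_NC and 172, 184 and 165 CPM in Antisense_NC (log2 fold change 1.21, SE 0.047, adjusted p = 8.6e-23), SMAD1 was called higher by 1.11 log2 units, and the ligand BMP4 rose by 0.91 log2 units. Of 16 tested of 19 listed, 5 rose, 7 fell and 4 did not pass the test. The shares that rose and fell were 31.25% and 43.75%, beside 34.4% and 32.2% of all genes tested. The median of -0.19 changed sign on the FPKM scale. Of this list 2 were called higher and 3 lower, against 0 and 2 with the GC and length trend removed. The ligand BMP7 fell, with 21.3, 20.1 and 22.2 CPM in Ctrl_NC and 11.5, 10.8 and 13.4 CPM in Antisense_NC (log2 fold change -0.89, SE 0.10, adjusted p = 1.1e-09). The study had picked SMAD6, SMURF2 and BMP7 in comparisons that used the Ctrl_NC libraries, so their values are not independent of that choice.

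**Figure D4:**
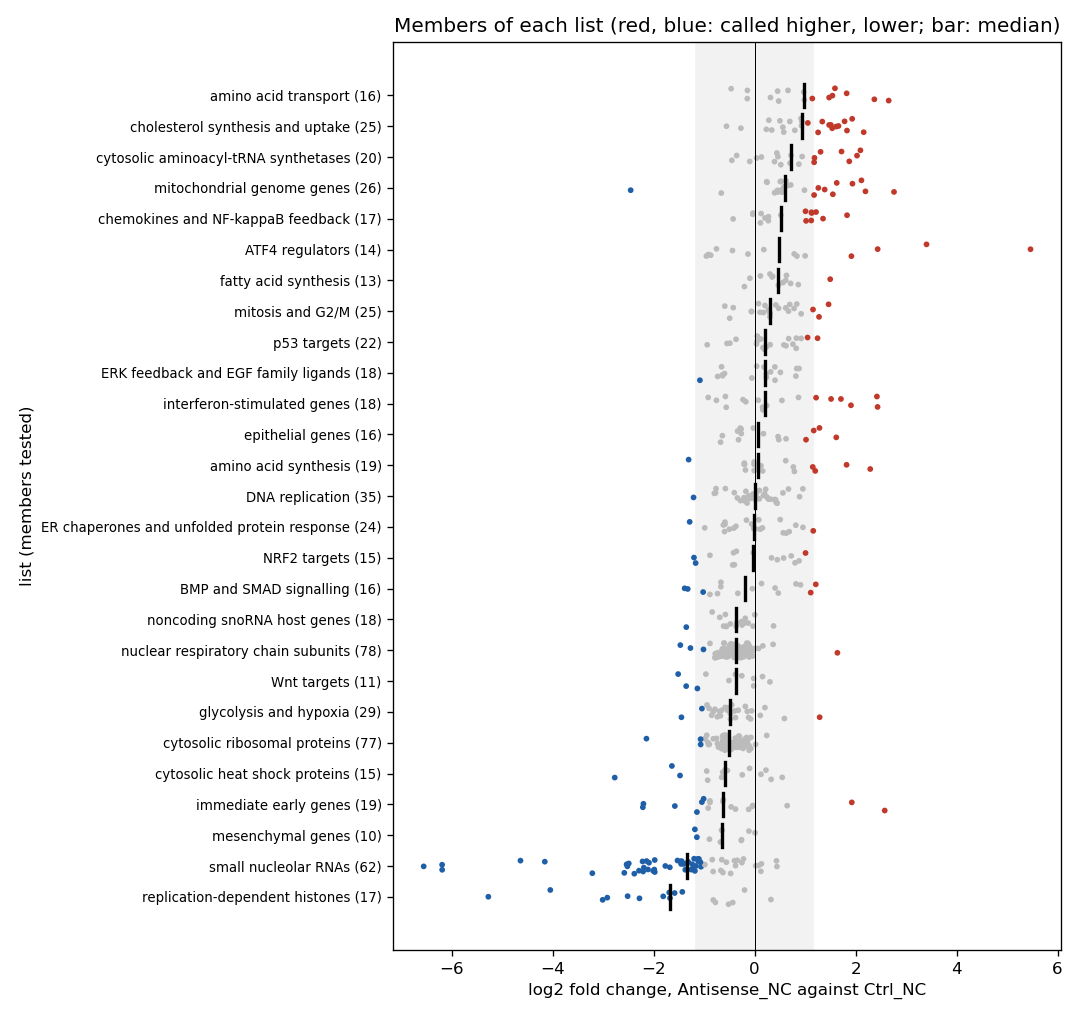
Each point is a tested member of a list, placed by its log2 fold change of Antisense_NC over Ctrl_NC, with genes called higher in red and called lower in blue. Black bars are list medians, from 0.98 in amino acid transport to -1.68 in the histones, and the grey band runs from the 5th to the 95th percentile of all genes tested.

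The remaining genes at either end of the ranking belong to no single list. HPS6, a subunit of a complex that builds lysosome-related organelles, measured 0.606, 1.04 and 0.936 CPM in Ctrl_NC and 9.95, 7.89 and 10.3 CPM in Antisense_NC (log2 fold change 3.35, SE 0.21, adjusted p = 1.4e-16). ADM2, a peptide of the calcitonin family, measured 1.27, 1.52 and 1.07 CPM in Ctrl_NC and 10.2, 10.8 and 9.83 CPM in Antisense_NC (log2 fold change 2.94, SE 0.18, adjusted p = 1.1e-16). CDC42EP2, an effector of the GTPase CDC42, and C12orf65 (now MTRFR, a mitochondrial ribosome rescue factor) were called higher by 2.71 and 2.62 log2 units. At the lower end NR2F2, the orphan nuclear receptor COUP-TFII (ENSG00000185551.12, chromosome 15, 96325938 to 96340263, plus strand), measured 279, 261 and 266 CPM in Ctrl_NC and 49.9, 53.1 and 50.6 CPM in Antisense_NC (log2 fold change -2.44, SE 0.044, adjusted p = 1.6e-33). CXCR4, the receptor of the chemokine CXCL12, measured 51.2, 47.98 and 50.5 CPM in Ctrl_NC and 10.3, 10.1 and 9.78 CPM in Antisense_NC (log2 fold change -2.35, SE 0.081, adjusted p = 2.0e-24). MARCH3, a membrane ubiquitin ligase, LINC00482, a noncoding RNA, and NES, the filament protein nestin, were called lower, with log2 fold changes of -2.31, -2.31 and -2.31. Of the abundant called genes, EFHD2, a calcium-binding protein, and MYL6, a myosin light chain, were lower, with log2 fold changes of -1.25 and -1.21.

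Cells of both kinds were also sequenced with the hnRNPK construct in place of its negative control, in 6 libraries that the comparison above did not use. Between Antisense_hnRNPK and Ctrl_hnRNPK 14853 genes were tested, 11.8% were called higher and 11.1% called lower. Of the 2033 genes called above 1966 could be tested in these libraries. The sign was the same for 1939 (98.6%), and 1509 were called with that sign and 0 with the other. Over the 14207 genes tested in both, 83.9% had the same sign. The third Ctrl_hnRNPK library stood apart from its group, and without it 1972 of 2002 had the same sign and 1564 were called with it. There CHAC1 had a log2 fold change of 6.96 (adjusted p = 2.8e-06), TRIB3 of 4.21, ASNS of 4.01 and SLC7A11 of 4.52. HSPA8 had a log2 fold change of -1.88 (adjusted p = 9.2e-04), CYR61 of -3.98, DNAJB1 of -2.06 and NR2F2 of -3.29. Of the cholesterol list 8 of 25 rose there, with a median of 0.37. Of the mitochondrial genome genes 4 of 24 rose, and MT-ND1 had a log2 fold change of 0.30 (adjusted p = 0.436), or 0.81 (adjusted p = 1.8e-04) without that library. FASN had a log2 fold change of -1.06 there (adjusted p = 0.0488) and of -0.40 (adjusted p = 0.373) without that library. Whether these effects differ between the 2 sets of libraries was not tested.

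**Figure D5:**
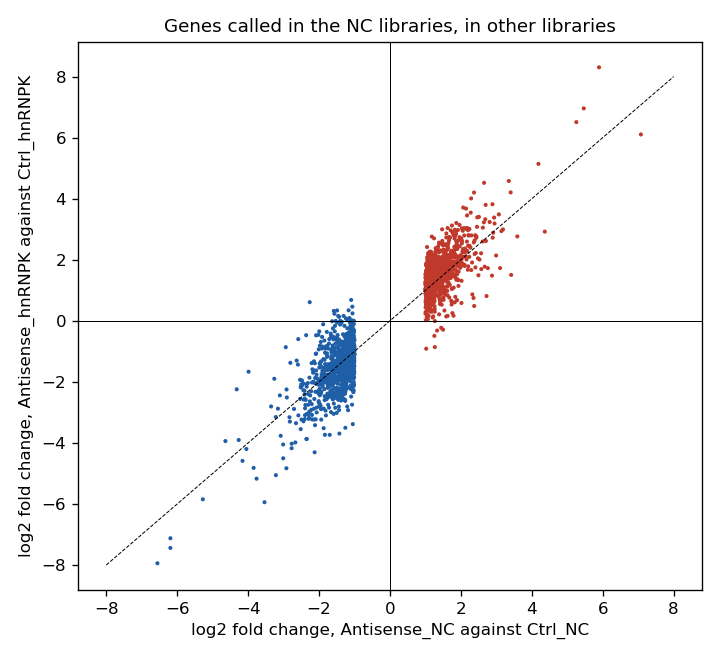
Each point is a gene called between Antisense_NC and Ctrl_NC and tested in both comparisons, LINC01767 left out, with its log2 fold change there on the horizontal axis and its log2 fold change between Antisense_hnRNPK and Ctrl_hnRNPK on the vertical axis. Of the 1966 genes tested in both, 1939 had the same sign, and the dashed line marks equal values.

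Cells that expressed CRLM1 itself (CRLM1_NC) were set beside these values. That comparison shares the Ctrl_NC libraries with the one above, so only each gene's own values are given. The mean of CHAC1 was 1.19 ± 0.481 CPM for Ctrl_NC, 2.28 ± 0.391 CPM for CRLM1_NC and 52.7 ± 3.12 CPM for Antisense_NC (SD, n = 3 each). TRIB3 measured 14.5 ± 3.07, 19.2 ± 2.22 and 157 ± 7.81 CPM in the same order, ASNS 40.9 ± 0.802, 49.7 ± 1.75 and 207 ± 2.599 CPM, and SLC7A5 361 ± 11.1, 389.7 ± 18.9 and 1319.9 ± 17.4 CPM. For these genes the CRLM1_NC mean lay closer to that of Ctrl_NC than to that of Antisense_NC. Between CRLM1_NC and Antisense_NC, CHAC1 was lower in CRLM1_NC (log2 fold change -4.49, SE 0.11, adjusted p = 5.5e-29) and so was SLC7A5 (-1.72, adjusted p = 2.2e-32). For ACAT2, FOS and FTH1, as for CHAC1, TRIB3, ASNS and SLC7A5, the CRLM1_NC mean lay between those of Ctrl_NC and Antisense_NC. It was closer to Ctrl_NC for ACAT2 and closer to Antisense_NC for FOS and FTH1. The levels of ACAT2 were 14.6 ± 1.17, 27.6 ± 0.525 and 68.01 ± 0.213 CPM in that order, FOS 63.1 ± 5.33, 25.5 ± 2.28 and 14.1 ± 2.13 CPM, and FTH1 6649.8 ± 125, 4049.5 ± 257 and 3057 ± 113 CPM. HSPA8 measured 1966 ± 66.7, 1598 ± 35.9 and 652 ± 24.3 CPM and NR2F2 269 ± 9.48, 281 ± 5.24 and 51.2 ± 1.67 CPM. CXCL8 was at 41.5 ± 2.89 CPM in CRLM1_NC, below its Ctrl_NC mean of 51.8 ± 2.86 CPM, and at 124 ± 2.49 CPM in Antisense_NC.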

How the data were processed

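RNA of HCT116 cells was sequenced in 18 libraries of 6 groups, 3 numbered replicates each per the labels, and 6 of them were compared here. Libraries were made with the KAPA RNA HyperPrep kit. The RNA selection step and the strand used in counting are not given in the sources used here. The authors trimmed the paired reads with the FASTX toolkit, aligned them to GRCh38 with TopHat2 and deposited, for each gene of a Gencode annotation, the count of uniquely placed reads. A second deposited table holds FPKM, the authors' values per kilobase and per mapped read total.

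Counts were filtered with filterByExpr, scaled by TMM and tested with the quasi-likelihood F-test of edgeR 4.0.16 (robust, two-sided, R 4.3.3), with p-values adjusted by Benjamini-Hochberg over the whole table tested. Calls needed an adjusted p of at most 0.05 and a fold change of at least 2 or at most 0.5. The fit was checked on simulated counts with known fold changes. CPM used TMM factors over all 18 libraries. Alternatives were RLE factors, DESeq2 1.42.0, no filter, limma 3.58.1 on log2(FPKM + 0.1) and log2(FPKM + 1), all 18 libraries, a replicate block, offsets against a GC and length trend, no mitochondrial genes, and each library left out in turn. Printed intervals cover counting error only.

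The genes and the 31 lists were chosen with earlier results of these data known. The text names LINC01767, PLPP3 and HNRNPK, the 10 highest and 10 lowest called genes of at least 5 CPM whose groups do not overlap, the 10 most abundant called genes, all members of the ATF4 and heat shock lists, of every other list up to 6 members past the adjusted p with the largest changes, and the snoRNAs within HSPA8, and it describes most of these. Some genes that this rule names are not reported here. List members matched the table by the gene ID of their symbol, or by a unique current or older symbol where that failed. Some lists were taken by a pattern in the symbol. Coordinates are those of Gencode 44 on GRCh38, matched by gene ID for 29999 of 31004 genes, and promoters are RefSeq windows on GRCh38.p14. Genes with near-identical copies or overlapping partners are uncertain, since strand use is not given.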

Additional observations from a re-analysis of the deposited data

Results flagged for a closer look

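BAG3, a co-chaperone of HSP70, had log2 fold changes of opposite sign in the 2 sets of libraries. It was higher in every Antisense_NC library than in every Ctrl_NC library, with a log2 fold change of 0.13. These groups did not overlap for 68.9% of all genes tested. In edgeR the rise did not pass with all 18 libraries (adjusted p = 0.529), without Ctrl_NC 2 (0.084) or without Antisense_NC 1 (0.0915). With the hnRNPK construct it was lower in every Antisense_hnRNPK library than in every Ctrl_hnRNPK library, with a log2 fold change of -0.63 (adjusted p = 0.0421, edgeR). The levels were 97.3 ± 29.8 CPM in Ctrl_hnRNPK and 64.6 ± 6.03 CPM in Antisense_hnRNPK (SD, n = 3 each), and without the third Ctrl_hnRNPK library, which stood apart, the log2 fold change was -0.34. The difference between the 2 effects was not tested.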

How the results depend on the processing

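The number of called genes stayed within 1.5 times its value of 2033 under RLE factors, DESeq2, no filter on low counts, a fit of all 18 libraries, the removal of the GC and length trend, the removal of mitochondrial genes and each left-out library. Without each library in turn 1027 to 1111 genes were called higher and 1022 to 1070 lower. On the log2(FPKM + 1) scale 595 genes were called, 447 higher and 148 lower, and on the log2(FPKM + 0.1) scale 413 were called lower and 1488 higher. These scales moved the median of all genes to 0.13 and 0.21, and the larger pseudocount shrinks the fold changes of low genes. The share of higher calls was 50.9% in the edgeR fit and 75.1% and 78.3% on the 2 FPKM scales.

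Of the named genes 3 changed sign. CHORDC1 had log2 fold changes of 0.15 and 0.10 on the log2(FPKM + 0.1) and log2(FPKM + 1) scales, EIF4EBP1 of 0.10 and 0.10, and HNRNPK of 0.054 and 0.054. EIF4EBP1 was also at 0.23 with the GC and length trend removed. Over all named genes and alternatives 3012 values kept their sign and their side of the adjusted p limit, 46 no longer passed that limit and 2 passed it only in the alternative. Of these 46, most came from the fit of all 18 libraries and from the FPKM scales, and the cause was not tested.

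Counts of list members moved by over 1.5 times in 86 cases and by less in 784. On the FPKM scale the respiratory chain list had 38 members lower in place of 64, amino acid synthesis 14 higher in place of 9, and DNA replication 20 higher and 6 lower in place of 13 and 13. The unfolded protein response list had 14 higher in place of 9, and snoRNAs had 26 lower in place of 47 with the GC and length trend removed. With all 18 libraries in the fit, ribosomal proteins had 40 lower in place of 70, respiratory chain genes 27 in place of 64, and glycolytic and hypoxia genes 14 in place of 22. In the same fit mitotic genes had 9 higher in place of 17, p53 targets 7 in place of 13, chemokines 8 in place of 14 and fatty acid genes 5 in place of 10. The list medians of the unfolded protein response, NRF2 targets, DNA replication and BMP signalling changed sign under some alternatives.

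With the replicate number as a block 1040 genes were called higher and 988 lower, and 2004 calls were shared with the fit without it. Deviations of same-numbered libraries correlated at 0.00023, -0.022 and -0.0082, so no shared deviation was seen. Whether same-numbered libraries shared a culture or a day is not stated in the sources used here, and these correlations cannot settle it. The mitochondrial share differed by 2.64 to 2.91 percentage points without each library in turn. Depth limits the precision of genes with few counts, such as the snoRNAs within HSPA8.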
